A study of Mus musculus with 18 samples.

Results

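Lgr5, Olfm4, Ascl2, Smoc2, Axin2, Rnf43, Sox9, Aqp4, Prom1 and Cdca7 are genes of the intestinal stem cell and of its Wnt response. They were taken from the count tables by matching each Ensembl gene ID to its GENCODE M21 symbol, which found all 10, of 47729 genes listed. Poly(A) RNA was sequenced from flow-sorted epithelium of the ileum, where the small intestine ends, in female mice. There were 6 libraries from pregnant mice, 6 from pseudopregnant mice, which are in a luteal state without embryos, and 6 from virgin mice. All groups were on RM3 chow for breeding and RM1 chow for maintenance and the experiment, and no genotype, transgene or drug is named for any of them. The labels give no strain, age, day of pregnancy, way of inducing pseudopregnancy, hour of collection, sort marker or batch. They do not say that the libraries of a group came from separate animals, so every p-value measures the spread between these samples, part of which may be technical.

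In the small intestine, new epithelium comes from stem cells at the base of the crypts, which sit between Paneth cells, and daughter cells divide and then mature as they move up the villus. Wnt ligands and R-spondins at the crypt base stabilise β-catenin, which turns on target genes together with TCF/LEF factors. Some targets, such as Axin2 and Rnf43, feed back to restrain the pathway, and others, such as Lgr5 and Ascl2, mark the stem cells or hold their fate. In RNA from a mixture of cells, fewer cells of a type and less RNA per cell cannot be told apart.

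The libraries held 24.9 to 37.3 M (mega) counts, with a median of 31.5 M. Counts were scaled by TMM, a correction of library size that uses the bulk of the genes, and are given as CPM, counts in each M of the library. The epithelial adhesion gene Epcam stood at 1639 to 3589 CPM and Fabp6, the ileal bile acid binding protein, at 1729 to 14268 CPM in the 18 libraries. The pan-leukocyte gene Ptprc stood at 0.198 to 0.638 CPM. Summed over 14 leukocyte genes the level was 14.7 to 45.6 CPM, and over 18 genes of stroma, vessels, muscle and glia it was 7.65 to 19.3 CPM. All 10 stem cell and Wnt genes had counts in 18 of 18 libraries and passed the filter on low counts that left 14675 genes to test. The smallest count of any of them in a library was 49, for Ascl2, and the smallest for Lgr5 was 60.

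In the GRCm38 build, Lgr5 lies on chromosome 10 from 115450311 to 115587780 on the minus strand and Olfm4 on chromosome 14 from 79984081 to 80023139 on the plus strand. Ascl2 lies on chromosome 7 from 142966829 to 142969264 (minus), Smoc2 on chromosome 17 from 14279506 to 14404790 (plus), Prom1 on chromosome 5 from 43993620 to 44102032 (minus) and Cdca7 on chromosome 2 from 72476159 to 72486893 (plus). Chromosome 11 holds Axin2 from 108920349 to 108950783, Rnf43 from 87662722 to 87735539 and Sox9 from 112782224 to 112787760, all on the plus strand, and Aqp4 lies on chromosome 18 from 15389496 to 15410982 (minus). All are protein coding, and the counts are those of whole genes. Prom1 shares 424 exon bases with Gm16401 on the other strand, which had at most 31 counts in a library, against at least 1102 for Prom1. Axin2 shares 209 exon bases with the antisense gene Gm11670, which had at most 2 counts, and Olfm4 shares 153 with Gm6999, which had 0.

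Levels of different genes are compared per kilobase of annotated exon. Olfm4, a secreted glycoprotein that marks stem cells of the mouse small intestine, had the highest mean, 68.5 ± 34.2 CPM per kilobase (mean ± SD over 18 libraries), and was above Cdca7 in 17 of 18. The exception was virgin replicate 2, with 9.83 CPM per kilobase of Olfm4 and 13.9 of Cdca7. Next came Cdca7 (11.3 ± 2.96) and Axin2 (10.96 ± 2.79), which were within the spread of each other, with Cdca7 above Axin2 in 11 of 18 libraries. Prom1 had 8.79 ± 2.56, Sox9 5.97 ± 2.13, Smoc2 4.42 ± 1.23, Rnf43 3.33 ± 0.865 and Ascl2 2.73 ± 1.30 CPM per kilobase. The ranges of neighbours in this order overlapped: Prom1 was above Sox9 and Sox9 above Smoc2 in 17 of 18 libraries each, Smoc2 above Rnf43 in 14 and Rnf43 above Ascl2 in 13. Aqp4 had 1.21 ± 0.679 CPM per kilobase, and Lgr5 was lowest in this measure at 0.589 ± 0.276, with Aqp4 above Lgr5 in 18 of 18 libraries. The spread over libraries differed between the genes. The highest library exceeded the lowest 14.3-fold for Olfm4, 6.90-fold for Aqp4, 6.57-fold for Lgr5, 6.06-fold for Ascl2 and 5.27-fold for Sox9, 3.34-fold for Smoc2 and 2.74- to 2.86-fold for Axin2, Rnf43, Prom1 and Cdca7.

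Promoters are shown for Axin2 with Rnf43 and for Ascl2 with Cdca7, because each of these pairs was closely correlated across libraries (given further on). RefSeq's promoter table (build GRCm38.p6) gave 8 windows of 250 bases before a transcript start for 6 of the 10 genes. Stretches that GENCODE annotates as exon are left out of the Cdca7 window, and of 2 windows of Rnf43 the one outside exons, which lies within the gene before an internal start, is given. All sequences run 5′ to 3′ on the strand of the gene, in lower case, with CANNTG in capitals. This is the E-box, the motif read by basic helix-loop-helix proteins such as Ascl2.
Axin2, chr11:108920099-108920348 (plus): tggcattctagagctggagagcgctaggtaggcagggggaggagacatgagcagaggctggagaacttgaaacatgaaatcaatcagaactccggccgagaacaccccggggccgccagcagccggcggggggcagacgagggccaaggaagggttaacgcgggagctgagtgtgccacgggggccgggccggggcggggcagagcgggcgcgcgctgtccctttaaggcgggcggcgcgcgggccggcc
Rnf43, chr11:87699647-87699896 (plus): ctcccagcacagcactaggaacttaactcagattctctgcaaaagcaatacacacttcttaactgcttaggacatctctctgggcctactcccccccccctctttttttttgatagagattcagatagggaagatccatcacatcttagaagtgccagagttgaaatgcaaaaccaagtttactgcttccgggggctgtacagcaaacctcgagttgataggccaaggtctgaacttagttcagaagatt
Ascl2, chr7:142969265-142969514 (minus): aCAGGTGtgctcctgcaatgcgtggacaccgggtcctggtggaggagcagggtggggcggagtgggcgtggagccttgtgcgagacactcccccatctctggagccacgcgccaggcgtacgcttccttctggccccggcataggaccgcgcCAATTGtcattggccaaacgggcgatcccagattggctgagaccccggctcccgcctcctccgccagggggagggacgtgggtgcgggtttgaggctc
Cdca7, chr2:72475969-72476158 (plus): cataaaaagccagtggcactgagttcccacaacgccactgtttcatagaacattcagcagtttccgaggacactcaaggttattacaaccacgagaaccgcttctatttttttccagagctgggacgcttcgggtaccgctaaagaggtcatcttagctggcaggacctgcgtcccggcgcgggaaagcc
The TCF/LEF motif was searched as CTTTGAA or CTTTGAT or CTTTGTA or CTTTGTT on both strands, and 0 of the 8 windows held it, against 14.84% of all 32851 windows of that length in the table. CANNTG was in 4 of the 8 windows, against 66.22% of all, and the Ascl2 window held it in 2 places, which start 249 and 98 bases before the transcript start. These are matches of letters in short windows and not binding sites.

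Lgr5, the R-spondin receptor that defines crypt base stem cells, had 2.67, 5.64 and 9.35 CPM in pregnant mice, 3.16, 6.58 and 13.7 CPM in pseudopregnant mice and 2.08, 5.38 and 7.36 CPM in virgin mice (lowest, median and highest of 6, as for each gene that follows). Its highest library, pseudopregnant replicate 5, stood above every library of the other groups, and otherwise the 3 groups overlapped. Olfm4 had 93.0, 186 and 257 CPM in pregnant mice, 57.2, 289 and 417 CPM in pseudopregnant mice and 29.1, 193 and 290 CPM in virgin mice. Its lowest libraries were virgin replicate 2 and pseudopregnant replicate 1, and both were below every pregnant library.

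Ascl2, the basic helix-loop-helix factor that holds stem cell fate, had 1.75, 4.09 and 5.42 CPM in pregnant mice, 2.54, 3.33 and 5.09 CPM in pseudopregnant mice and 1.73, 5.95 and 10.5 CPM in virgin mice. Virgin replicate 2 had the highest level and virgin replicate 3 the lowest, so the virgin group spanned both others. Sox9, a transcription factor of the crypt base that is also needed for Paneth cells, had 12.4, 21.7 and 33.8 CPM in pregnant mice, 15.3, 25.02 and 31.1 CPM in pseudopregnant mice and 8.67, 28.6 and 45.7 CPM in virgin mice. The same virgin libraries, replicates 2 and 3, held its highest and lowest level. Smoc2, a secreted matricellular protein of the stem cell signature, had 14.7, 31.3 and 39.5 CPM in pregnant mice, 20.2, 35.6 and 41.8 CPM in pseudopregnant mice and 12.5, 33.8 and 38.1 CPM in virgin mice. Replicate 3 was the lowest library of each group for Smoc2.

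Axin2, a scaffold of the complex that degrades β-catenin and a feedback target of Wnt signalling, had 30.9, 56.2 and 66.9 CPM in pregnant mice, 43.4, 75.6 and 88.4 CPM in pseudopregnant mice and 39.7, 57.9 and 69.9 CPM in virgin mice. Pseudopregnant replicates 2, 3, 4 and 5 exceeded all pregnant and virgin libraries, and pseudopregnant replicates 1 and 6 were below most of them. Rnf43, a ubiquitin ligase that removes Wnt receptors from the cell surface, had 12.8, 21.6 and 24.7 CPM in pregnant mice, 16.3, 23.1 and 35.8 CPM in pseudopregnant mice and 15.1, 20.2 and 23.2 CPM in virgin mice. Pseudopregnant replicates 2 and 5 were above all libraries of the other groups, and the remaining pseudopregnant libraries lay among them.

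Aqp4, a water channel of the crypt base in mice, had 2.96, 5.501 and 8.66 CPM in pregnant mice, 4.18, 9.89 and 20.4 CPM in pseudopregnant mice and 3.95, 6.31 and 8.66 CPM in virgin mice. Pseudopregnant replicates 2, 4, 5 and 6 were above all pregnant and virgin libraries, replicate 6 by a narrow margin at 8.68 CPM, and replicates 1 and 3 were near the lowest. Prom1, the membrane protein CD133 of stem and early dividing crypt cells, had 39.3, 54.7 and 65.1 CPM in pregnant mice, 47.6, 72.7 and 112 CPM in pseudopregnant mice and 40.6, 59.6 and 68.5 CPM in virgin mice. Pseudopregnant replicates 4, 5 and 6 exceeded every library of the other groups. Cdca7, a nuclear zinc finger protein induced in dividing cells, had 19.1, 35.4 and 46.8 CPM in pregnant mice, 23.6, 33.1 and 47.4 CPM in pseudopregnant mice and 17.3, 43.7 and 44.7 CPM in virgin mice. Replicate 3 was again the lowest of each group.

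**Figure D1:**
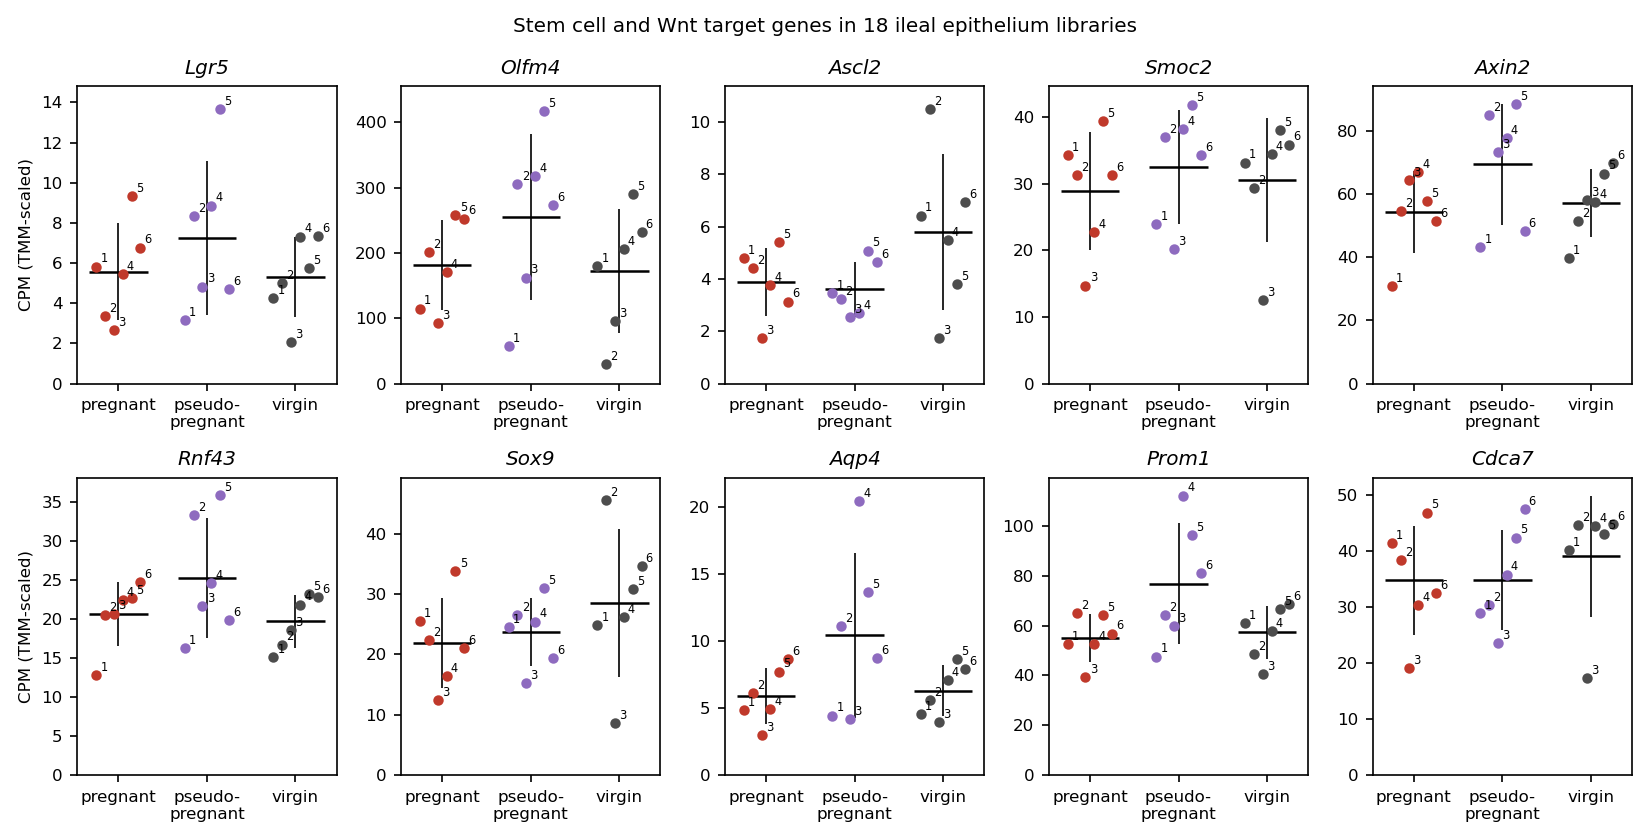
TMM-scaled CPM (linear axes from 0) of the 10 genes in each library of pregnant, pseudopregnant and virgin mice. Points are libraries with their replicate number, and black bars are the mean ± SD of 6. For Aqp4 and Prom1 the highest libraries are pseudopregnant, at 20.4 and 112 CPM, and the groups overlap for every gene.

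Comparing pregnant with virgin mice shows how the genes differ in the ileum of pregnancy. Across 14675 genes, edgeR's quasi-likelihood test with Benjamini-Hochberg adjustment passed 0 genes at 0.05 (0.0%), and 0 of the 10 stem cell and Wnt genes passed. At an unadjusted p under 0.05 there were 540 genes (3.68%, 2.02% higher and 1.66% lower), none of them among the 10, and no gene of the 10 had groups that did not overlap (0.0681% of all genes). DESeq2 called 5 genes (627 unadjusted) and limma-voom 0 (528 unadjusted), again none of the 10. Mean levels were close for most: Lgr5 averaged 5.57 ± 2.41 CPM in pregnant mice and 5.29 ± 2.003 in virgin mice (SD, n = 6 each), a log2 fold change of 0.08 with a 95% interval of -0.67 to 0.82. Olfm4 averaged 182 ± 68.7 CPM in pregnant mice and 172 ± 94.8 in virgin mice, a log2 fold change of 0.08 (-0.85 to 1.01). Differences within these intervals were not detectable with this spread.

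The widest gap between pregnant and virgin mice was that of Ascl2, which averaged 3.88 ± 1.32 CPM in pregnant mice and 5.82 ± 2.98 in virgin mice. Its log2 fold change was -0.58 (SE 0.33, edgeR unadjusted p = 0.0902, adjusted p = 0.891), 6 of 6 pregnant libraries were under the virgin median, and it was -0.33 without virgin replicate 2 and -0.77 without virgin replicate 3. Sox9 averaged 21.9 ± 7.43 CPM in pregnant mice and 28.5 ± 12.3 in virgin mice, a log2 fold change of -0.38 (SE 0.29), which was -0.19 without virgin replicate 2 and -0.57 without virgin replicate 3. Without virgin replicate 3, Ascl2 and Sox9 came under an unadjusted edgeR p of 0.05 (0.0122 and 0.0228, adjusted p = 0.321 and 0.333). Of all 14675 genes, 1936 were under 0.05 in that fit, beside 540 with all libraries. With the enterocyte-minus-proliferation score of each library, described further on, as a covariate, Ascl2 was at -0.16 and Lgr5 at 0.46 in the same comparison, and the median of the 10 was 0.16. Cdca7 had -0.17, Aqp4 -0.10, Smoc2 -0.08, Axin2 -0.07, Prom1 -0.06 and Rnf43 0.07, with standard errors of 0.19 to 0.34. The median of the 10 log2 fold changes was -0.08, beside -0.01 for all genes tested, and 3 of 10 were positive, beside 48.5% of all.

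In pseudopregnant against virgin mice, 0 of the 10 genes passed after adjustment by edgeR, as for all 14675 genes (0.0%), and DESeq2 (1504 unadjusted) and limma-voom (1107 unadjusted) also passed 0 genes. At an unadjusted p under 0.05, 3 of the 10 were counted, 2 with a higher level and 1 with a lower one, beside 9.37% of all genes, of which 7.36% were higher and 2.01% lower. That count was 0 of 10 with limma-voom, with only the 12 libraries compared and with the length slope described further on as a covariate. It was also 0 of 10 without pseudopregnant replicate 4 or virgin replicate 2. Without pseudopregnant replicate 2 or 5 or virgin replicate 1, 3 or 4, it was 1 of 10. It rose to 4 of 10 with the replicate number as a block, where the 4 were Ascl2, Rnf43, Aqp4 and Prom1. With the enterocyte-minus-proliferation score as a covariate it was also 4 of 10, namely Lgr5, Smoc2, Aqp4 and Prom1. Over all genes, 1375 were under 0.05 in the main fit, 1988 with the block and 1673 with the score. There were 1215 with only the 12 libraries compared, 311 with the length slope and 630 without pseudopregnant replicate 4. Prom1 averaged 76.9 ± 24.3 CPM in pseudopregnant mice and 57.3 ± 10.8 in virgin mice, a log2 fold change of 0.42 (SE 0.19, edgeR unadjusted p = 0.0350, adjusted p = 0.515), with 5 of 6 pseudopregnant libraries above the virgin median. Aqp4 averaged 10.4 ± 6.14 CPM in pseudopregnant mice and 6.28 ± 1.89 in virgin mice, a log2 fold change of 0.73 (SE 0.34, edgeR unadjusted p = 0.0445, adjusted p = 0.515), with 4 of 6 above. Without pseudopregnant replicate 4, the values were 0.42 for Aqp4 and 0.29 for Prom1. Ascl2 went the other way, at 3.61 ± 1.04 CPM in pseudopregnant mice and 5.82 ± 2.98 in virgin mice.

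The log2 fold change of Ascl2 was -0.68 (SE 0.33, edgeR unadjusted p = 0.0488, adjusted p = 0.515), 6 of 6 pseudopregnant libraries were below the virgin median, and it was -0.45 without virgin replicate 2. Rnf43 had 0.36 (SE 0.19), Axin2 0.28 (SE 0.20), Olfm4 0.57 (SE 0.45) and Lgr5 0.46 (SE 0.35), and none of these reached an unadjusted p under 0.05 in edgeR. Lgr5 was 0.18 without pseudopregnant replicate 5, Olfm4 0.33 without virgin replicate 2 and Axin2 0.18 without virgin replicate 1. Smoc2 had 0.09, Cdca7 -0.17 and Sox9 -0.26. No gene of the 10 had groups that did not overlap (0.0681% of all genes). The median of the 10 was 0.32, beside 0.0045 for all genes tested, and 7 of 10 values were positive, beside 50.6% of all genes. Without pseudopregnant replicate 5 that median was 0.19.

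Pregnant and pseudopregnant mice were then compared with each other, which sets aside what both states share. Again 0 of the 10 genes, and 0.0% of all, passed edgeR's adjusted test, and DESeq2 (389 unadjusted) and limma-voom (247 unadjusted) passed 0. At an unadjusted p under 0.05, 2 of the 10 were counted, both lower in pregnant mice, beside 2.35% of all genes, of which 1.59% were lower. That count was 1 of 10 with limma-voom and with either covariate (the score or the length slope), 0 of 10 without pseudopregnant replicate 4, and 1 of 10 without pregnant replicate 1 or 3 or pseudopregnant replicate 5. It rose to 3 of 10 without pseudopregnant replicate 1. Over all genes, 345 were under 0.05 in the main fit, 1552 without pseudopregnant replicate 1 and 114 without pseudopregnant replicate 4. Prom1 averaged 55.1 ± 9.47 CPM in pregnant mice and 76.9 ± 24.3 in pseudopregnant mice, a log2 fold change of -0.48 (SE 0.19, edgeR unadjusted p = 0.0186, adjusted p = 0.920). Aqp4 averaged 5.86 ± 2.09 CPM in pregnant mice and 10.4 ± 6.14 in pseudopregnant mice, a log2 fold change of -0.83 (SE 0.34, edgeR unadjusted p = 0.0252, adjusted p = 0.920). For both, 6 of 6 pregnant libraries were below the pseudopregnant median, although the groups overlapped. Without pseudopregnant replicate 4, Aqp4 was at -0.52 and Prom1 at -0.34.

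For Axin2 and Olfm4, too, 6 of 6 pregnant libraries were below the pseudopregnant median, with log2 fold changes of -0.35 (SE 0.20) and -0.49 (SE 0.45), and neither reached an unadjusted p under 0.05. Lgr5 had -0.38, Rnf43 -0.29, Smoc2 -0.17, Sox9 -0.11, Ascl2 0.10 and Cdca7 -0.0004. Without pseudopregnant replicate 5, Lgr5 was at -0.10 and Olfm4 at -0.30, and Axin2 was at -0.22 without pregnant replicate 1. The median of the 10 was -0.32 (-0.13 without pseudopregnant replicate 5), beside -0.01 for all genes tested, 1 of 10 was positive, beside 48.4% of all, and 0 of 10 had groups that did not overlap (0.0273% of all genes). Each group enters 2 of the 3 comparisons, so their values for a gene are not independent of each other.

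**Figure D2:**
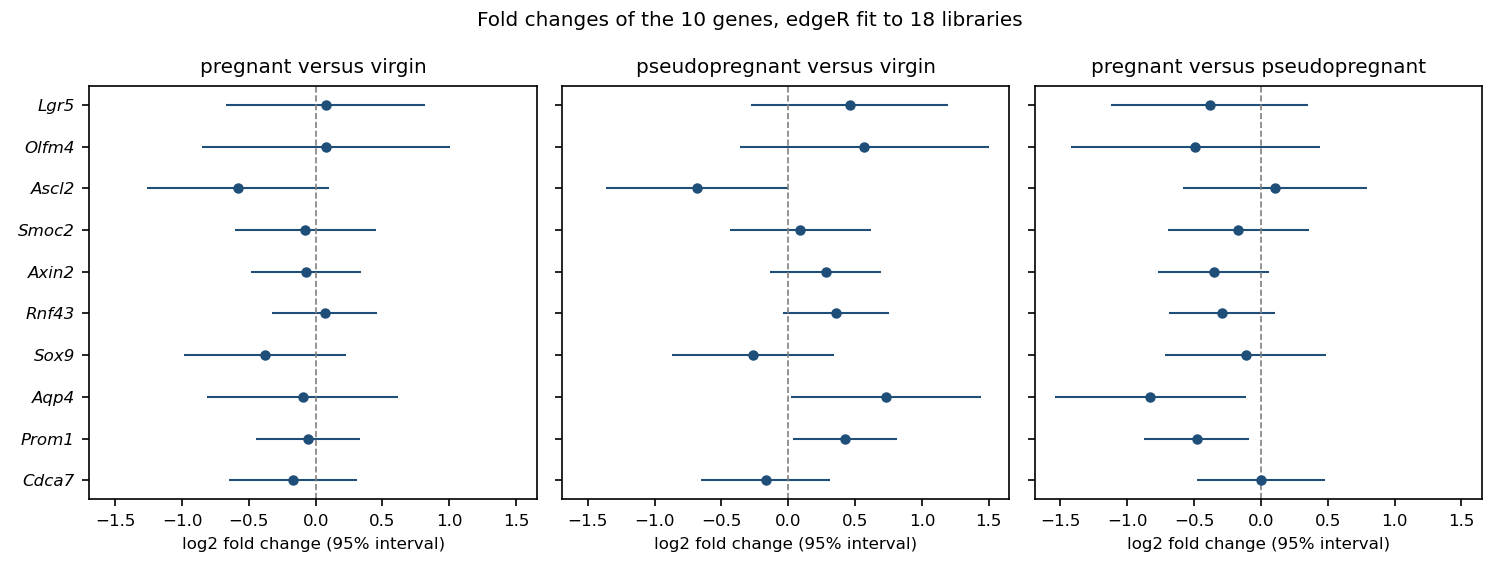
Log2 fold changes of the 10 genes in the 3 comparisons, fitted by edgeR to all 18 libraries; points are estimates and bars their 95% intervals. The intervals of Prom1 and Aqp4 leave out 0 in the 2 comparisons with pseudopregnant mice, but 0 genes passed after adjustment.

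The 10 genes tended to vary together from library to library. Correlations used log2 CPM (prior count 2) of the 18 libraries, with permutation tests of 100000 draws (smallest p possible 1e-05, two-sided), adjusted over the 45 pairs. Of these pairs 40 had a positive Pearson r, with a median of 0.556, and 23 passed 0.05 after adjustment for both r and Spearman's rho. Over all 107670475 pairs of tested genes the median r was -0.00027. The share of all pairs that would pass for both coefficients was not computed. Ranked among all tested genes by r with Lgr5, Smoc2 (r = 0.81) stood at 185 and Olfm4 (r = 0.63) at 1415. By r with Olfm4, Prom1 (r = 0.74) stood at 902. Correlations of this size were thus not limited to the 10 genes. All pairs come from the same 18 libraries and are not independent of each other.

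Axin2 and Rnf43, both feedback inhibitors, went together, with r = 0.89 (permutation p = 1e-05, adjusted p = 0.000112) and rho = 0.80 (permutation p = 0.00018, adjusted p = 0.00101). Leaving out pregnant replicate 1 and pseudopregnant replicate 5, the farthest from the median of Axin2, r was 0.81, and r within the groups was 0.85 in pregnant, 0.89 in pseudopregnant and 0.92 in virgin mice. Ascl2, Sox9 and Cdca7 also passed for both coefficients with each other, and Smoc2 did so with Sox9 and Cdca7. Ascl2 with Smoc2 passed for r (0.65, permutation p = 0.00312, adjusted p = 0.00817) but not for rho (0.45, permutation p = 0.0664, adjusted p = 0.103). Smoc2 passed for both with Lgr5, Olfm4, Aqp4 and Prom1 as well. Ascl2 with Cdca7 had r = 0.86 (permutation p = 1e-05, adjusted p = 0.000112) and rho = 0.83 (permutation p = 7e-05, adjusted p = 0.000514), and r was 0.86 without virgin replicates 2 and 3.

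Smoc2 with Cdca7 had the highest r of all pairs, 0.90 (permutation p = 1e-05, adjusted p = 0.000112), with rho = 0.66 (permutation p = 0.00404, adjusted p = 0.00957). It rested in part on the replicate 3 libraries, since r was 0.73 without pregnant and virgin replicate 3. Aqp4 with Prom1, whose highest libraries were pseudopregnant, had r = 0.88 (permutation p = 1e-05, adjusted p = 0.000112) and rho = 0.83 (permutation p = 4e-05, adjusted p = 0.00045). Without pregnant replicate 3 and pseudopregnant replicate 4, that r was 0.78. Lgr5 went most closely with Smoc2, at r = 0.81 (permutation p = 2e-05, adjusted p = 0.00018) and rho = 0.86 (permutation p = 3e-05, adjusted p = 0.00045), and r was 0.71 without pseudopregnant replicate 5 and virgin replicate 3.

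No relation of the feedback pair with Ascl2 passed. Ascl2 with Axin2 had the lowest r, -0.27 (permutation p = 0.268, adjusted p = 0.345), with rho = -0.31 (permutation p = 0.201, adjusted p = 0.251), and r was -0.29 without virgin replicates 2 and 3. Olfm4 and Sox9 had r = 0.09 (permutation p = 0.729, adjusted p = 0.793) and rho = 0.35 (permutation p = 0.152, adjusted p = 0.201), but r was 0.73 without pseudopregnant replicate 1 and virgin replicate 2. In those libraries Olfm4 was at its lowest levels, 57.2 and 29.1 CPM, while Sox9 stood at 24.6 and 45.7 CPM. Lgr5 in virgin replicate 2 was at 5.02 CPM, within the range of its group.

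**Figure D3:**
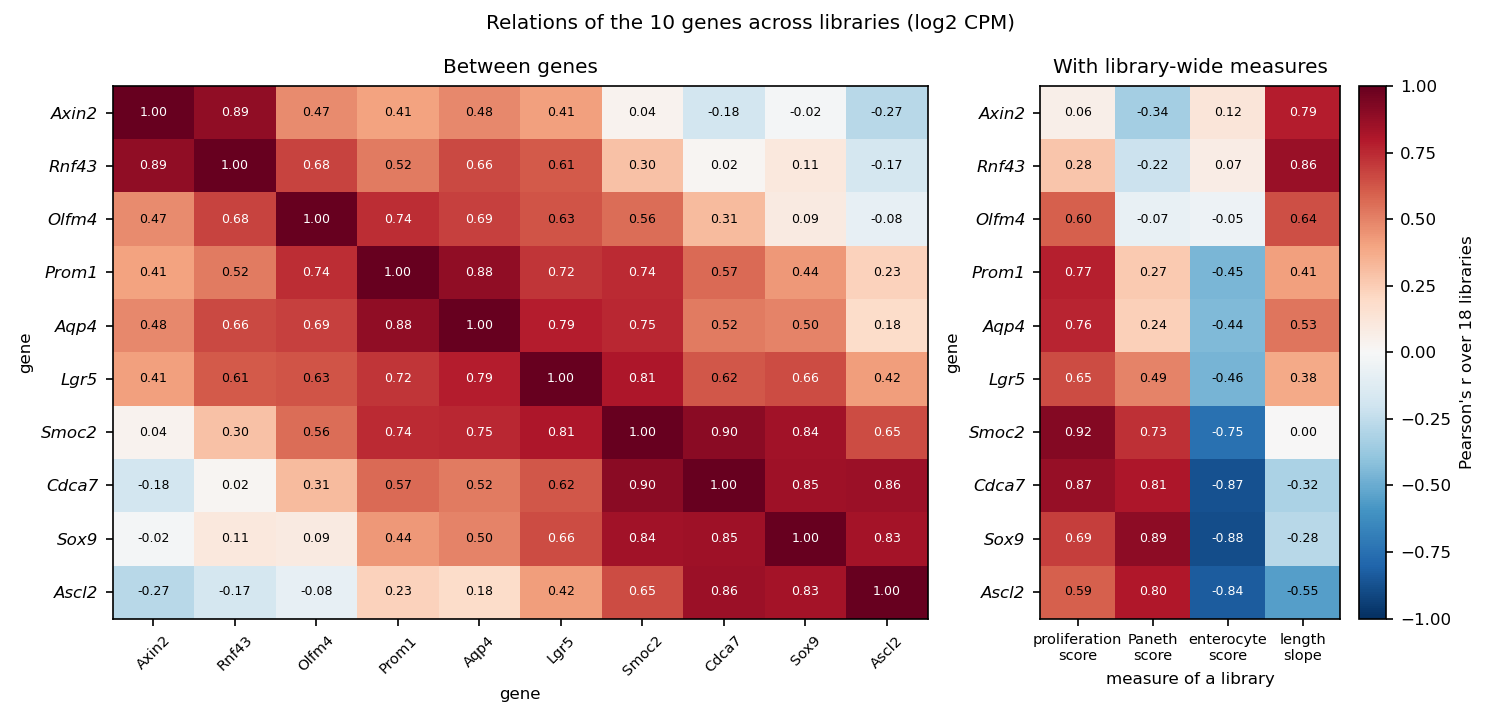
Pearson r of log2 CPM between each pair of the 10 genes over the 18 libraries (colour scale from -1 to 1, r printed in each square). Axin2 with Rnf43 (0.89) and Ascl2 with Cdca7 (0.86) are high, while Ascl2 with Axin2 is at -0.27.

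The levels were set beside 3 library-wide scores, each the mean log2 deviation of a gene list from its average over the 18 libraries: 30 proliferation genes, 21 absorptive enterocyte genes and 11 Paneth cell genes, none of them among the 10. Adjustment was over the 30 relations of genes to scores. The share of all tested genes that would pass with each score was not computed. With proliferation, Smoc2 had r = 0.92 (permutation p = 1e-05, adjusted p = 6e-05) and rho = 0.78 (permutation p = 0.00032, adjusted p = 0.00127), and r was 0.89 without pregnant and virgin replicate 3. Cdca7, Prom1, Aqp4 and Olfm4 also passed for both coefficients, with r = 0.87, 0.77, 0.76 and 0.60. Without the same libraries their r was 0.77, 0.64, 0.67 and 0.54.

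Enterocyte genes went the opposite way for 4 genes. Sox9 had r = -0.88 (permutation p = 1e-05, adjusted p = 6e-05) and rho = -0.82 (permutation p = 3e-05, adjusted p = 0.0003), and Cdca7, Ascl2 and Smoc2 had r = -0.87, -0.84 and -0.75. Without pregnant and virgin replicate 3, these were -0.85 for Sox9, -0.82 for Cdca7, -0.74 for Ascl2 and -0.59 for Smoc2. With the Paneth score, Sox9 had r = 0.89 (permutation p = 1e-05, adjusted p = 6e-05) and rho = 0.83 (permutation p = 5e-05, adjusted p = 0.000375), Cdca7 r = 0.81 and Ascl2 r = 0.80. Without virgin replicates 2 and 3, r was 0.77 for Sox9, 0.71 for Cdca7 and 0.69 for Ascl2.

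Axin2 and Rnf43 passed with none of the 3 scores, at r = 0.06 and 0.28 with proliferation, 0.12 and 0.07 with enterocyte genes and -0.34 and -0.22 with Paneth genes (adjusted permutation p of 0.238 or more for r). Lgr5 with proliferation passed for r (0.65, permutation p = 0.00319, adjusted p = 0.00684) but not for rho (0.49, permutation p = 0.0391, adjusted p = 0.0690), and r was 0.41 without pregnant and virgin replicate 3. Replicate 3 of each group had the highest enterocyte-minus-proliferation score of its group, 1.44 in pregnant, 1.13 in pseudopregnant and 1.31 in virgin mice on the log2 scale. With these 3 libraries left out, which was tried after the data were seen, 0 of the 10 genes passed edgeR's adjusted test in each comparison. The medians of the 10 log2 fold changes were then -0.08 in pregnant against virgin mice, 0.32 in pseudopregnant against virgin mice and -0.33 in pregnant against pseudopregnant mice. Ascl2 then had -0.62 and Sox9 -0.45 in pregnant against virgin mice (edgeR unadjusted p = 0.0244 and 0.0383, adjusted p = 0.680 for both). Ascl2 had -0.79 in pseudopregnant against virgin mice.

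Axin2 and Rnf43 went instead with the length slope, the slope of a library's log2 deviations on log2 exon bases over 6364 genes of at least 20 CPM on average, whose 10 relations were adjusted together. Rnf43 had r = 0.86 (permutation p = 1e-05, adjusted p = 0.0001) and rho = 0.78 (permutation p = 0.00021, adjusted p = 0.00105), and Axin2 r = 0.79 (permutation p = 7e-05, adjusted p = 0.00035) and rho = 0.78 (permutation p = 0.0002, adjusted p = 0.00105). Without pseudopregnant replicate 5 and virgin replicate 2, r was 0.83 for Rnf43 and 0.78 for Axin2. Ascl2 went the other way at r = -0.55 (permutation p = 0.0185, adjusted p = 0.0458) and rho = -0.61 (permutation p = 0.00818, adjusted p = 0.0273), and r was -0.59 without the same libraries. Olfm4 passed for r (0.64, permutation p = 0.0039, adjusted p = 0.013) but not for rho (0.54, permutation p = 0.0218, adjusted p = 0.0544), and r was 0.43 without those libraries. Aqp4 also passed for r (0.53, permutation p = 0.0229, adjusted p = 0.0458) and not for rho (0.36, permutation p = 0.139, adjusted p = 0.231). From most to fewest exon bases, r was 0.38 for Lgr5 (10264 bases), 0.41 for Prom1 (7175) and 0.0035 for Smoc2 (6951). Rnf43 (6558), Aqp4 (6233) and Axin2 (5506) had 0.86, 0.53 and 0.79. Then came Sox9 (4135) at -0.28, Cdca7 (3202) at -0.32, Olfm4 (2962) at 0.64 and Ascl2 (1623) at -0.55. The adjusted permutation p for r was 0.179 for Lgr5, 0.154 for Prom1, 0.989 for Smoc2, 0.294 for Sox9 and 0.251 for Cdca7. How large a share of all tested genes would pass with the slope was not computed. The slope was steepest upward in pseudopregnant replicates 5, 4 and 2, at 0.26, 0.20 and 0.19, and downward in virgin replicate 2 and pregnant replicate 1, at -0.25 and -0.24.

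With the slope as a covariate, chosen after the data were seen, the medians of the 10 were -0.13 in pregnant against virgin mice, -0.01 in pseudopregnant against virgin mice and -0.15 in pregnant against pseudopregnant mice. Rnf43 then had 0.0044 and Axin2 -0.07 in pseudopregnant against virgin mice, Aqp4 0.25 and Prom1 0.28. In pregnant against pseudopregnant mice Aqp4 had -0.55 and Prom1 -0.40. The part of RNA length or quality in these differences was not tested.

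**Figure D4:**
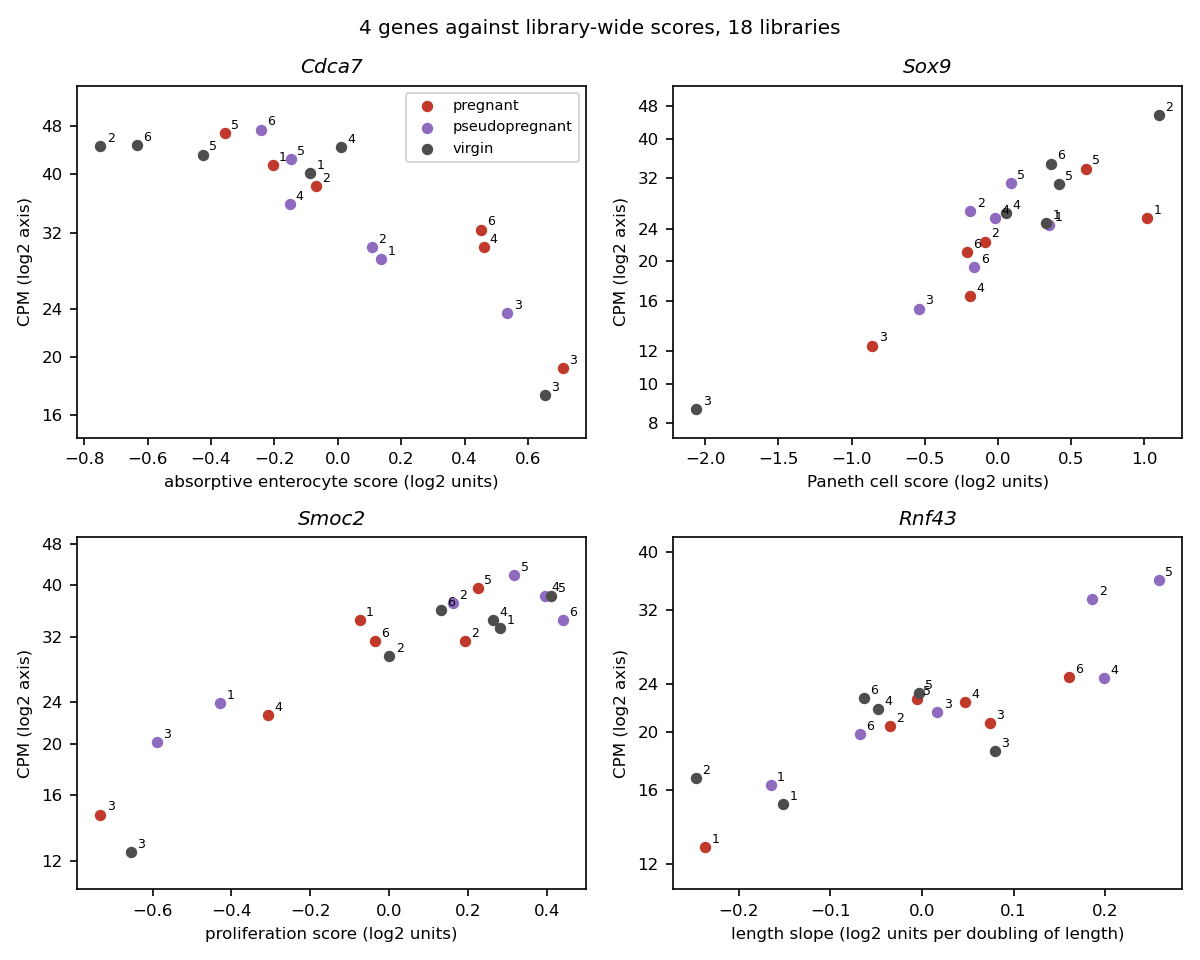
TMM-scaled CPM (log2 axes) of Cdca7, Sox9, Smoc2 and Rnf43 against a score of each library (log2 units; for the length slope, log2 units per doubling of length), with points numbered by replicate. Cdca7 goes down with the enterocyte score (r = -0.87), Sox9 up with the Paneth score (0.89), Smoc2 up with proliferation (0.92) and Rnf43 up with the length slope (0.86).

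Other genes of the crypt base and the Wnt pathway were read from the same edgeR test, in which 0 genes of any list passed after adjustment in any comparison. Of 19 other crypt base stem cell genes tested, 6 were higher and 13 lower in pregnant than in virgin mice (median log2 fold change -0.12), 13 higher and 6 lower in pseudopregnant than in virgin mice (0.16), and 2 higher and 17 lower in pregnant than in pseudopregnant mice (-0.23). Phlda1, a pleckstrin-domain gene of the stem cell signature, averaged 17.3 ± 5.37 CPM in pseudopregnant mice and 34.6 ± 18.5 in virgin mice, a log2 fold change of -1.002 (SE 0.32, edgeR unadjusted p = 0.00598, adjusted p = 0.515). Esrrg, an orphan nuclear receptor, had 4.61 ± 2.30 CPM in pseudopregnant mice and 2.57 ± 0.992 in virgin mice, a log2 fold change of 0.84 (SE 0.33).

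Wnt ligands and R-spondins, which in mice come largely from cells below the epithelium, were scarce: 3 of 17 genes passed the count filter, with a summed level of 5.03 to 11.3 CPM. Wnt3, the ligand made by Paneth cells, had 4.71 ± 1.65 CPM in pregnant, 5.05 ± 1.55 in pseudopregnant and 5.51 ± 2.21 in virgin mice. Of secreted Wnt inhibitors, 2 of 8 passed the filter, Sfrp5 and Dkk3. Among 31 Wnt receptors and transducers, 24 were higher and 7 lower in pregnant than in virgin mice (median 0.08), 21 higher and 10 lower in pseudopregnant than in virgin mice (0.07), and 10 higher and 21 lower in pregnant than in pseudopregnant mice (-0.05). In pseudopregnant against virgin mice, 6 of the 31 were higher at an unadjusted p under 0.05 and 0 lower, beside 7.36% and 2.01% of all genes. They included Apc, a scaffold that promotes β-catenin decay, at 55.5 ± 19.9 CPM in pseudopregnant mice and 37.2 ± 5.75 in virgin mice, a log2 fold change of 0.58 (SE 0.20).

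Gsk3b, a kinase of the same complex, had a log2 fold change of 0.41 (SE 0.14) and the Wnt co-receptor Lrp6 one of 0.54 (SE 0.20) in pseudopregnant against virgin mice. Scored like the lists above, the 31 receptors and transducers stood highest in pseudopregnant replicates 5, 2 and 4 (0.42, 0.34 and 0.23). These libraries also had the steepest upward length slopes. Over all genes, 1375 were at an unadjusted p under 0.05 in this comparison, and 311 with the slope as a covariate. The part of the slope in the values of this list was not tested. The 13 other Wnt targets tested had medians of -0.14 in pregnant against virgin mice, 0.02 in pseudopregnant against virgin mice and -0.23 in pregnant against pseudopregnant mice. Among them Myc, the growth regulator, averaged 19.4 ± 6.11 CPM in pregnant, 19.3 ± 5.29 in pseudopregnant and 26.4 ± 8.16 in virgin mice, with log2 fold changes of -0.45 against virgin in both states. Apcdd1, a Wnt inhibitor at the membrane, had 1.72 ± 1.31 CPM in pregnant mice and 0.631 ± 0.366 in virgin mice, a log2 fold change of 1.44 (SE 0.56, edgeR unadjusted p = 0.0177, adjusted p = 0.891). Of the 7 reserve and regenerative stem cell genes tested, 5 were higher and 2 lower in pregnant than in virgin mice (median 0.25), and 6 higher and 1 lower in pseudopregnant than in virgin mice (0.23). The alarm cytokine Il33 averaged 16.2 ± 6.59 CPM in pregnant, 14.1 ± 4.6 in pseudopregnant and 10.1 ± 3.31 in virgin mice, with a log2 fold change of 0.67 (SE 0.29, edgeR unadjusted p = 0.0317, adjusted p = 0.891) in pregnant against virgin mice. Hopx, a homeodomain gene of reserve stem cells, was among the lower ones and averaged 35.7 ± 6.67 CPM in pregnant, 32.8 ± 6.09 in pseudopregnant and 42.7 ± 10.2 in virgin mice.

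Among 11 Notch and EGF niche genes, 10 were higher and 1 lower in pregnant than in virgin mice, beside 48.5% of all genes with a positive fold change, with a median of 0.15 and Dll4, a Notch ligand, at 0.59 (SE 0.22). In pseudopregnant against virgin mice the median was 0.45, and 4 of 11 were higher at an unadjusted p under 0.05, beside 7.36% of all genes, including Erbb3, Notch2 and Egfr at 0.67, 0.78 and 0.53. The score of the 11 genes was also highest in pseudopregnant replicates 5, 2 and 4, at 0.52, 0.38 and 0.34. The part of the length slope in it was not tested. The marker lists of other epithelial cells gave values beside these: 30 of 30 proliferation genes were lower in pregnant than in virgin mice (median -0.19), with 17 higher and 13 lower in pseudopregnant against virgin mice (0.02). Mki67, a marker of dividing cells, averaged 57.1 ± 21.04 CPM in pregnant, 91.3 ± 46.2 in pseudopregnant and 58.0 ± 13.5 in virgin mice. Its log2 fold change in pseudopregnant against virgin mice, 0.65, was the highest of the 30, and Ube2c had the lowest, -0.41. Of 21 enterocyte genes, 19 were higher in pregnant and 17 in pseudopregnant than in virgin mice (medians 0.44 and 0.20). Of 11 Paneth cell genes, 10 were lower in pregnant and 11 in pseudopregnant than in virgin mice (medians -0.11 and -0.43). Goblet cell genes were lower in 10 of 10 in pregnant and 8 of 10 in pseudopregnant mice (medians -0.36 and -0.29), enteroendocrine genes in 11 and 10 of 11 (-0.33 and -0.18) and tuft cell genes in 7 and 5 of 8 (-0.23 and -0.25). At an unadjusted edgeR p under 0.05, pregnant mice had 0 proliferation, 0 Paneth, 1 goblet, 2 enteroendocrine and 0 tuft cell genes lower than virgin mice. Pseudopregnant mice had 0 lower in each of these lists. Of all genes, 1.66% were lower at that level in pregnant and 2.01% in pseudopregnant mice. Enterocyte genes had 5 of 21 higher in pregnant mice, beside 2.02% of all genes, and 2 of 21 in pseudopregnant mice, beside 7.36%. Genes of a list come from the same libraries and are not independent of each other. The part of cell content in the values of the 10 genes was not tested.

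The genes most like Lgr5 across the 18 libraries, by Pearson r of log2 CPM among all tested genes, were Tnfrsf19, Kit, Frmd4a, Prelp, Pde3b and Peli2, at r = 0.93, 0.93, 0.93, 0.92, 0.92 and 0.92. Tnfrsf19, also called Troy, is another receptor of the stem cell signature. Smoc2 ranked 185 among all genes by that measure, Aqp4 266 and Prom1 706. The genes most like Olfm4 were Wee1, Parn, Polr2b, Xylb, Ipo7 and Tfdp1, at r of 0.93 to 0.95. They are genes of cell cycle control, RNA decay, transcription and nuclear import, with Xylb a sugar kinase, and Prom1 ranked 902 by likeness to Olfm4.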

How the data were processed

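The authors deposited raw counts of reads for each Ensembl gene in a table for every library. Per the submitters' processing notes, tools were FastQC 0.11.5, HISAT2 2.0.4, featureCounts, Subread 2.0.0 and DESeq2 1.24.0 with build GRCm38; neither the strand setting nor the annotation release is given in the sources used here, and overlapping genes may share reads. Libraries were made from poly(A) RNA with a directional NEBNext kit, per the labels. GENCODE M21 gave symbols, positions and exon bases. Replicates of a group differed beyond sampling noise (chi-square of 35.5 to 455.8 for each degree of freedom).

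Genes were filtered by filterByExpr, scaled by TMM and fitted with edgeR 4.0.16 (R 4.3.3, quasi-likelihood, legacy = FALSE, 1 mean per group, all 18 libraries), two-sided, with Benjamini-Hochberg adjustment over 14675 genes. The fit was tested on simulated data with 200 changed genes. It recovered 57% of genes at a log2 change of 1 and 94% at 2, up or down, and 6.8% of its calls were false. Smaller changes were not simulated. The 10 genes are named in every comparison; of other lists, up to 3 tested genes of smallest p were computed per comparison and some are given here. The genes, lists and scores were chosen with earlier results of these data known. Alternatives were DESeq2's size factors, no filter, DESeq2 1.42.0, limma-voom (limma 3.58.1), only the libraries compared, the replicate number as a block, a score covariate and leaving out each library. Scores and correlations used log2 CPM with a prior count of 2. Same-numbered libraries did not all deviate together (correlations -0.48 to 0.66), so no pairing was assumed. Those numbered 3 were the closest match in all 3 comparisons. Their correlation was 0.66 for pregnant with virgin, 0.38 for pseudopregnant with virgin and 0.41 for pregnant with pseudopregnant libraries. Libraries numbered 5 were also the closest match for pseudopregnant with virgin (0.42) and pregnant with pseudopregnant (0.32). Those numbered 1 were so for pregnant with pseudopregnant (0.66).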

Additional observations from a re-analysis of the deposited data

Results flagged for a closer look

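Each of the 10 genes was checked in each of the 3 groups for a library far from the other 5, a check that flags about 1 in 20 groups by chance. It picked out 3 values, in 2 libraries. Smoc2 in virgin replicate 3 had 12.5 CPM, against 29.4 CPM in the next lowest virgin library. Cdca7 in the same library had 17.3 CPM, against 40.2 CPM in the next lowest. That library also had the lowest Paneth score of the 18, -2.06 on the log2 scale, and the highest enterocyte-minus-proliferation score of its group, 1.31. Rnf43 in pregnant replicate 1 had 12.8 CPM, against 20.4 CPM in the next lowest pregnant library, and its length slope was -0.24. Axin2 was also lowest of all 18 libraries there, at 30.9 CPM. The part of these scores in the low values was not tested.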

How the results depend on the processing

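None of the 10 genes passed after adjustment under any alternative, with a smallest adjusted p of 0.311, or 0.172 with a library left out. Of 270 log2 fold changes under 9 alternatives 250 kept their direction, and of 360 with a library left out 339 did. Over all genes, pregnant against virgin passed 5 genes in DESeq2 and 1 with the replicate number as a block, and the cause was not tested; the block changed no other call. With the enterocyte-minus-proliferation score as a covariate, values turned to 0.29 for Smoc2, 0.053 for Sox9, 0.27 for Aqp4, 0.15 for Prom1 and 0.17 for Cdca7 in pregnant against virgin mice, to 0.040 for Sox9 and 0.014 for Cdca7 in pseudopregnant against virgin mice, and to 0.012 for Sox9 and 0.15 for Cdca7 in pregnant against pseudopregnant mice. With the length slope, chosen after the data were seen, they turned to -0.076 for Lgr5, -0.14 for Olfm4 and -0.11 for Rnf43 in pregnant against virgin mice, to -0.040 for Olfm4 and -0.073 for Axin2 in pseudopregnant against virgin mice, and to -0.082 for Ascl2 in pregnant against pseudopregnant mice. Cdca7 in pregnant against pseudopregnant mice, at -0.0004, turned to 0.011 with DESeq2's size factors, 0.0038 with no filter, 0.011 in DESeq2, 0.0051 with only the 12 libraries compared and 0.034 without replicate 3 of all groups. The cause was not tested.

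With a library left out, the values that turned ran as follows. In pregnant against virgin mice they were -0.14 to 0.22 for Lgr5, -0.15 to 0.29 for Olfm4, -0.24 to 0.058 for Smoc2, -0.16 to 0.045 for Axin2, -0.24 to 0.038 for Aqp4 and -0.14 to 0.024 for Prom1. In pseudopregnant against virgin mice Smoc2 ran from -0.070 to 0.20. In pregnant against pseudopregnant mice Ascl2 ran from -0.018 to 0.25, Sox9 from -0.28 to 0.0051 and Cdca7 from -0.10 to 0.12. Genes at an unadjusted p under 0.05 moved widely in the same runs, from 213 (without pregnant replicate 4) to 1936 (without virgin replicate 3) in pregnant against virgin mice, 531 (without pseudopregnant replicate 5) to 3362 (without pseudopregnant replicate 1) in pseudopregnant against virgin mice, and 114 (without pseudopregnant replicate 4) to 1552 (without pseudopregnant replicate 1) in pregnant against pseudopregnant mice. Over all genes that number went past 1.5 times the main one, up or down, under some alternatives. It was 540 in pregnant against virgin mice, and 989 with no filter, 979 with the block, 291 with the score covariate and 1070 without replicate 3 of all groups. It was 1375 in pseudopregnant against virgin mice, and 311 with the length slope and 2252 without replicate 3. It was 345 in pregnant against pseudopregnant mice, and 618 with the block and 844 with no filter, again of 27470 genes. The smallest counts in a library were 49 for Ascl2 and 60 for Lgr5, which limits their precision.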
